A study of Mus musculus with 6 samples.

Results

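A set of 10 genes of glucose uptake and glycolysis were followed in regulatory T cells (Treg) that had been exposed in vivo to conventional CD4 T cells (Tconv) with or without the heterochromatin protein HP1α. The genes were chosen by symbol, as the rows of the count table named Slc2a1, Slc2a3, Hk1, Hk2, Pfkp, Aldoa, Gapdh, Pgk1, Pkm or Ldha. They are 10 of the 29199 genes listed, on 11 rows since Aldoa is written on 2, and all 10 passed the filter on low counts that left 18321 genes for testing. Lethally irradiated hosts, C57BL/6 J or B6 carrying CD45.1, were grafted with C57BL/6 J and B6D2F1 bone marrow depleted of T and NK cells, and received WT Treg, expanded ex vivo with IL-2, TGFβ and anti-CD3/CD28 beads from B6 Foxp3-Thy1.1 mice, together with naive CD4 Tconv. In one group the Tconv were WT (Hp1a+/+, 3 libraries) and in the other they were HP1α KO (Hp1a-/-, 3 libraries), both from littermates aged 6 to 12 weeks on a mixed 129/Sv and C57BL/6 background. The deletion was made by crossing floxed Hp1a mice with CMV-cre mice, which excise in all tissues. The Treg were WT in both groups and were re-isolated from the spleen 3 weeks after the graft by sorting for CD4, CD45.2, Thy1.1 and H-2Kb and against CD45.1 and H-2Kd, so the comparison asks whether the transcripts of WT Treg differ with the genotype of the Tconv beside them. Nothing in the labels says that the libraries of a group came from separate animals, and p-values then measure the spread between these libraries only.

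Glycolysis turns glucose into pyruvate in the cytosol and yields ATP without oxygen. Glucose enters T cells through the facilitative transporters GLUT1 (Slc2a1) and GLUT3 (Slc2a3), is trapped by hexokinases, committed by phosphofructokinase, cleaved by aldolase and oxidised by GAPDH, and ends as pyruvate, which lactate dehydrogenase can reduce to lactate. Activated effector T cells raise this pathway under mTOR, Myc and HIF-1α, while Treg are known to rely more on oxidation in mitochondria, with glycolysis linked to their proliferation and migration.

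The libraries held 87421755 to 119078882 counts, so each of the 10 genes was read at 1258 counts or more in every library. The labelled cell type was borne out by Foxp3, at 154 to 252 CPM (counts in a library scaled by the TMM method to 1000000), and by the 7 Treg markers together at 4172 to 5097 CPM. A library of Treg with WT Tconv, replicate 3, stood apart, with 7 red cell markers summing to 6261 CPM against 394 to 729 in the 5 others, 9 neutrophil markers to 1946 against 43.5 to 234, and 8 macrophage markers to 183 against 13.6 to 48.3. The 5 B cell markers summed to 14.5 to 24.8 CPM and 2 CD8 T cell markers to 5.82 to 8.77 CPM over the 6 libraries, and no defining marker of any list was at 0 in all libraries. Values without that library are given beside several of the results that it changed. Replicate 2 of Treg with HP1α KO Tconv also differed from its group, as described for the genes themselves. In bulk RNA, fewer cells expressing a transcript and less of it per cell cannot be told apart.

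No glycolysis gene passed the test between the groups. With the quasi-likelihood test of edgeR and Benjamini-Hochberg adjustment over all 18321 genes, 0 of the 10 had an adjusted p under 0.05, as for all genes tested (0.0%), and with DESeq2 0 of the 10 were called against 4.35% of the genes to which it gave an adjusted p. At an unadjusted p under 0.05, 2 of the 10 were counted, Hk2 and Pfkp, both lower beside HP1α KO Tconv, against 14.5% of all genes tested (7.52% lower and 6.98% higher). The groups did not overlap for 1 gene, Pfkp, against 23.0% of all genes (11.6% lower and 11.5% higher). The log2 fold change, HP1α KO Tconv over WT Tconv throughout, was above 0 for 6 genes and below 0 for 4, where 48.5% of all genes were above 0. Its median over the 10 genes was 0.04 and the median of its absolute size 0.14, beside -0.01 and 0.17 over all genes tested. The 6 positive values belonged to Slc2a3, Aldoa, Gapdh, Pgk1, Pkm and Ldha, and the 4 negative ones to Slc2a1, Hk1, Hk2 and Pfkp.

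**Figure D1:**
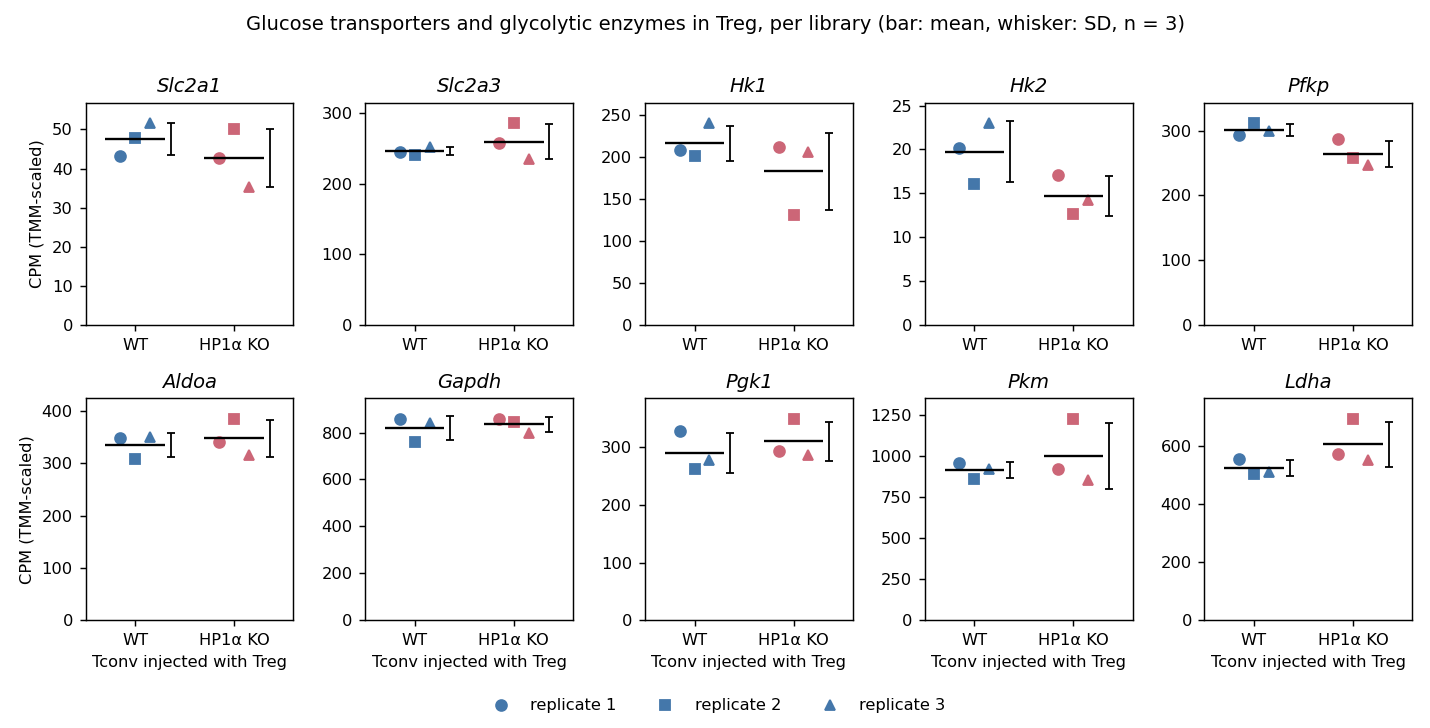
CPM (TMM-scaled, linear axis from 0) of each of the 10 genes for Treg beside WT Tconv (blue, 3 libraries) and beside HP1α KO Tconv (red, 3 libraries). Symbols mark the replicate number, the bar is the mean and the whisker the SD. Only for Pfkp do all 3 libraries with HP1α KO Tconv (247.0 to 287.2 CPM) lie below all 3 with WT Tconv (293.7 to 311.9 CPM).

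The start sites of the genes are shown for Hk2, Pfkp and Ldha. These genes had the smallest p among those lower and among those higher. Glycolytic genes are known targets of HIF-1, with ACGTG as a form of its core site. They are also targets of Myc and other E-box factors, whose site is CACGTG. The other form of the HIF-1 core site, GCGTG, was not searched, so the counts below leave it out. Both strands were searched over the 250 bases before the start of each canonical transcript (GRCm39 sequence, GENCODE transcripts), and a CACGTG holds an ACGTG on each strand, counted here as 1 site. The runs are written 5′ to 3′ on the strand of the gene, with the motifs in capitals. Hk2 is taken from chr6:82751453-82751702 (minus strand), Pfkp from chr13:6698971-6699220 (minus strand) and Ldha from chr7:46495013-46495262 (plus strand).
Hk2: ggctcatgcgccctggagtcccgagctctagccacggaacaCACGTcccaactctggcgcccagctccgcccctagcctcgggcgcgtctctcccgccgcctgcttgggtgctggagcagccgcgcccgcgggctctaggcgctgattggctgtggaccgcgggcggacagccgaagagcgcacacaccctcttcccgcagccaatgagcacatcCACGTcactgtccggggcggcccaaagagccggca
Pfkp: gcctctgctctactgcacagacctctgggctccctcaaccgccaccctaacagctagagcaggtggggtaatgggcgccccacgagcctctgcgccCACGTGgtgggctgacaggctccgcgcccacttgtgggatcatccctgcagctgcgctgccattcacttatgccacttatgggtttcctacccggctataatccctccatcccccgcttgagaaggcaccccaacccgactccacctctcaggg
Ldha: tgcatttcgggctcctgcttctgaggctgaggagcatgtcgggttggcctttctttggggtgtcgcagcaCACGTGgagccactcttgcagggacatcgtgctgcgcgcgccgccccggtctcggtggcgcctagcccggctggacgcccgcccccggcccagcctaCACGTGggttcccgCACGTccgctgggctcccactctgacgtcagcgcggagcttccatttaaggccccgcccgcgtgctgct

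ACGTG was present in 5 of the 10 windows, those of Hk2 and Pgk1 with 2 sites each, Ldha with 3, and Pfkp and Aldoa with 1. In the same window before 21757 annotated gene starts it was found in 17.0%. CACGTG occurred in 2 of the 10, once in Pfkp and at 2 of the Ldha sites, and in 6.3% of all windows. Neither motif was found in the windows of Slc2a1, Slc2a3, Hk1, Gapdh or Pkm, which says only that these letters are not in those 250 bases. The genes with a site had log2 fold changes of both signs, -0.43 for Hk2 and -0.19 for Pfkp against 0.05 for Aldoa, 0.10 for Pgk1 and 0.21 for Ldha. A match of letters is a description and was not tested against any binding data.

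Both transporters were detected in every library, and the groups overlapped for both. Slc2a3, which encodes the high-affinity transporter GLUT3 (ENSMUSG00000003153, GRCm39 chromosome 6, 122704768 to 122778599, minus strand), was at 245.1, 240.7 and 251.9 CPM in Treg with WT Tconv and at 256.6, 285.5 and 235.4 CPM in Treg with HP1α KO Tconv. The KO group held both the highest and the lowest of the 6 libraries, so the groups overlapped. Slc2a3 had a log2 fold change of 0.08 (SE 0.08, 95% interval -0.11 to 0.26) with an edgeR adjusted p of 0.701, and 0.0009 without replicate 2 of the KO group.

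Slc2a1, which encodes the ubiquitous transporter GLUT1 (ENSMUSG00000028645, chromosome 4, 118965908 to 118996365, plus strand), was at 43.3, 47.7 and 51.6 CPM with WT Tconv and at 42.7, 50.2 and 35.2 CPM with HP1α KO Tconv. Replicate 3 of the KO group was the lowest library and replicate 3 of the WT group, the one with red cell markers, the highest. The log2 fold change was -0.16 (SE 0.13, 95% interval -0.46 to 0.15) and the edgeR adjusted p 0.625. Without replicate 2 of the KO group it was -0.29 with an unadjusted edgeR p of 0.0318 and an adjusted p of 0.260. It was -0.03 (unadjusted edgeR p 0.767) without replicate 3 of the KO group and -0.09 without replicate 3 of the WT group.

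The hexokinases trap glucose as glucose 6-phosphate. Hk1, the constitutive form bound to mitochondria (ENSMUSG00000037012, chromosome 10, 62104621 to 62215687, minus strand), was at 207.4, 200.8 and 240.0 CPM with WT Tconv and at 211.9, 130.1 and 205.5 CPM with HP1α KO Tconv. A single library, replicate 2 of the KO group, was far below the 5 others. With all 6 libraries the log2 fold change of Hk1 was -0.24 (SE 0.20, 95% interval -0.72 to 0.23) with an edgeR adjusted p of 0.613, and -0.05 without that library. Without replicate 3 of the WT group it was -0.16.

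Hk2, the inducible hexokinase of activated and growing cells (ENSMUSG00000000628, chromosome 6, 82699740 to 82751469, minus strand), was the least abundant of the 10 genes and had the largest difference. It was at 20.2, 16.1 and 23.0 CPM (mean 19.8 ± 3.47 SD, n = 3) beside WT Tconv and at 17.1, 12.6 and 14.2 CPM (14.6 ± 2.28 SD, n = 3) beside HP1α KO Tconv. The groups overlapped, as replicate 1 of the KO group exceeded replicate 2 of the WT group. This amounted to a log2 fold change of -0.43 (SE 0.16, 95% interval -0.80 to -0.07), or 25.9% lower. Its unadjusted p of 0.0260 did not pass adjustment (edgeR adjusted p 0.284, DESeq2 adjusted p 0.0928), and 9.13% of all genes tested had a smaller p. The value was -0.31 (unadjusted edgeR p 0.0820) without replicate 3 of the WT group, the highest library, and -0.33 (unadjusted edgeR p 0.0850) without replicate 2 of the KO group, the lowest. It was -0.41 without replicate 1 of the WT group or replicate 3 of the KO group (unadjusted edgeR p 0.0753 and 0.0726). Leaving out replicate 1 of the KO group or replicate 2 of the WT group gave -0.55 (unadjusted edgeR p 0.0137 and 0.00780).

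Pfkp encodes the platelet-type phosphofructokinase, a form found in lymphocytes of the enzyme at the committed step (ENSMUSG00000021196, chromosome 13, 6629798 to 6698970, minus strand). It was at 293.7, 311.9 and 299.6 CPM (302 ± 9.30 SD, n = 3) beside WT Tconv and at 287.2, 258.4 and 247.0 CPM (264 ± 20.7 SD, n = 3) beside HP1α KO Tconv. Every KO library lay below every WT library, the nearest pair being 287.2 and 293.7 CPM. On the log2 scale the fold change of Pfkp was -0.19 (SE 0.08, 95% interval -0.36 to -0.02), or 12.4% lower, with an unadjusted p of 0.0336 and an edgeR adjusted p of 0.303. Leaving out a library gave -0.24 to -0.14, and the unadjusted edgeR p stayed under 0.05 only without replicate 1 of the KO group (0.0161), reaching 0.113 without replicate 3 of that group and 0.132 without replicate 2 of the WT group. Pitrm1 shares exonic bases with Pfkp on the opposite strand, which a stranded library keeps apart.

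Aldoa, Gapdh, Pgk1 and Pkm showed small differences of positive sign, and each 95% interval held 0. The sign of Aldoa, Gapdh and Pkm turned in a fit that left out a library. Aldoa, which splits fructose 1,6-bisphosphate (ENSMUSG00000030695, chromosome 7, 126393822 to 126399923, minus strand), was at 348.1, 309.2 and 349.9 CPM with WT Tconv and at 341.7, 385.8 and 316.0 CPM with HP1α KO Tconv. Its log2 fold change was 0.05 (SE 0.09, 95% interval -0.16 to 0.26), less than the spread within either group, and -0.03 without replicate 2 of the KO group. The second row under this symbol (ENSMUSG00000114515) held 5 to 25 counts per library, is named Gm57854 in GENCODE, and shares 2320 exonic bases with Aldoa on the same strand, so the division of reads between both rows is uncertain. With a log2 fold change of 0.04 and a 95% interval of -1.49 to 1.58, that row carried little information.

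Gapdh, the glyceraldehyde 3-phosphate dehydrogenase that is often taken as a reference transcript (ENSMUSG00000057666, chromosome 6, 125135289 to 125143518, minus strand), was at 859.4, 759.3 and 838.8 CPM with WT Tconv and at 859.3, 845.2 and 798.3 CPM with HP1α KO Tconv. The highest libraries of both groups were at the same level. Gapdh had a log2 fold change of 0.03 (SE 0.08, 95% interval -0.15 to 0.20), and -0.01 without replicate 2 of the WT group. Iffo1 shares 2982 exonic bases with Gapdh on the opposite strand and held 2116 to 2626 counts. Of near-identical copies, 58 were listed for Gapdh and together took 1.17 to 2.38% of the summed count. Pgk1 had 4 such copies with 1.02 to 1.26%, Pkm and Ldha had 1 and 2 copies with at most 0.318% and 0.0719%, and summing the copies changed no call.

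Pgk1, phosphoglycerate kinase, makes the first ATP of the pathway (ENSMUSG00000062070, chromosome X, 105230706 to 105247305, plus strand). It was at 328.2, 262.4 and 277.8 CPM with WT Tconv and at 293.3, 349.4 and 286.8 CPM with HP1α KO Tconv. The groups overlapped, and replicate 1 of the WT group was second to replicate 2 of the KO group. Its log2 fold change was 0.10 (SE 0.11, 95% interval -0.15 to 0.35), with 0.0035 without replicate 2 of the KO group, 0.05 without replicate 2 of the WT group and 0.21 without replicate 1 of the WT group.

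Pkm, pyruvate kinase, whose M1 and M2 forms are not told apart by a count per gene (ENSMUSG00000032294, chromosome 9, 59563364 to 59586663, plus strand), was at 958.5, 862.0 and 923.1 CPM with WT Tconv and at 924.9, 1229.8 and 853.2 CPM with HP1α KO Tconv. The KO group held the highest and the lowest of the 6 libraries. The log2 fold change of 0.13 (SE 0.14, 95% interval -0.18 to 0.44, edgeR adjusted p 0.685) turned to -0.04 without replicate 2 of the KO group. Gm49759, a predicted transcript that shares 3157 exonic bases with Pkm on the same strand, held 2634 to 5834 counts, which could be exchanged with those of Pkm in the estimation.

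Ldha, the lactate dehydrogenase subunit that favours lactate, had the largest positive value (ENSMUSG00000063229, chromosome 7, 46490899 to 46505061, plus strand). It was at 555.0, 504.0 and 510.7 CPM (523 ± 27.8 SD, n = 3) beside WT Tconv and at 570.7, 693.8 and 550.6 CPM (605 ± 77.5 SD, n = 3) beside HP1α KO Tconv. The groups overlapped by a narrow margin, since the lowest KO library was below the highest WT library by less than the spread within the WT group. Over the 6 libraries the log2 fold change was 0.21 (SE 0.10, 95% interval -0.02 to 0.44), or 15.6% higher, with an unadjusted p of 0.0675 and an edgeR adjusted p of 0.385. Without replicate 2 of the KO group, the highest library, it was 0.10.

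**Figure D2:**
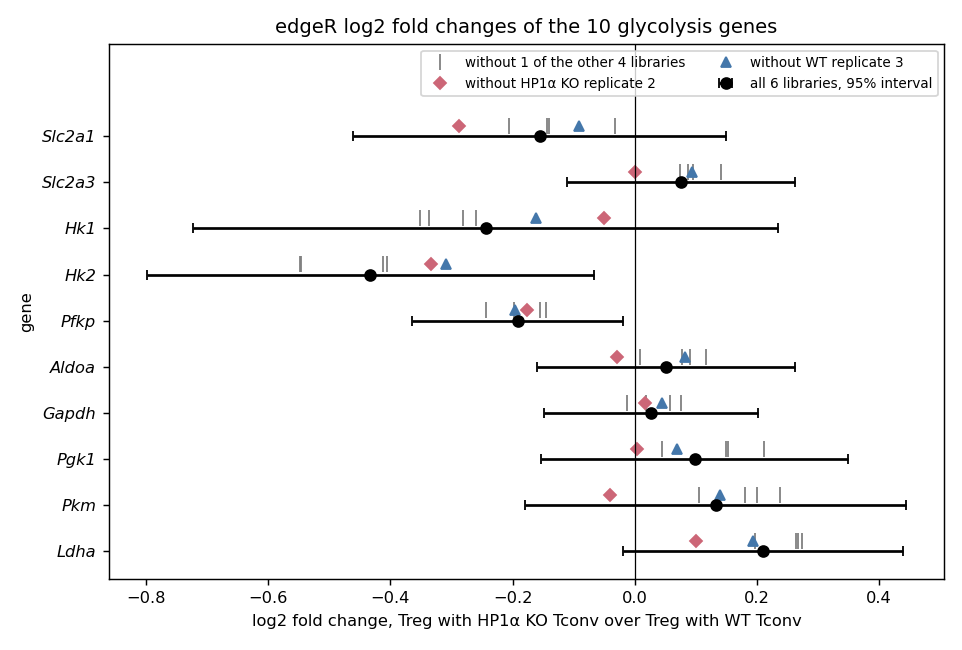
Log2 fold change of the 10 genes (HP1α KO Tconv over WT Tconv) with its 95% interval from edgeR in black. The marks above each line are the same value when 1 library is left out. The intervals of Hk2 (-0.80 to -0.07) and Pfkp (-0.36 to -0.02) do not reach 0 before adjustment, and the values of Aldoa (-0.03) and Pkm (-0.04) fall below 0 without replicate 2 of the KO group.

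Replicate 2 of Treg with HP1α KO Tconv set much of the spread. It was the highest of the 6 libraries for Slc2a3, Aldoa, Pgk1, Pkm and Ldha and the lowest for Hk1 and Hk2, and the 10 genes summed to 4241 CPM there against 3514 to 3859 CPM in the 5 others. Against the mean of the other 2 libraries of its group, Pkm was 0.47, Slc2a1 0.36 and Ldha 0.31 higher on the log2 scale, and Hk1 fell by 0.68. The median of the absolute deviation over the 10 genes was 0.29 in that library, and 0.15 over the 8848 genes that averaged 10 CPM or more. In the 5 other libraries the median over all those genes was 0.07 to 0.11, so the library stood apart across genes and not for glycolysis alone. Of the 7 Treg markers, Foxp3 (154 CPM), Cd3e (147 CPM), Il2ra (121 CPM) and Cd4 (688 CPM) were lowest in that library, Tnfrsf18 (578 CPM) was highest, and Ikzf2 and Ctla4 were neither, while their sum (4528 CPM) was the highest of the 3 KO libraries.

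Over the genes that averaged 10 CPM or more, the median deviation in that library fell with transcript length. The 10 genes followed this in part only, with 0.03 for Gapdh, the shortest, and 0.47 for Pkm. In that library the median deviation was 0.10 for 1917 genes whose canonical transcript is under 2000 bases, 0.02 for 3282 genes of 2000 to 4000 bases and -0.05 for 3637 longer genes. Gapdh, Aldoa, Ldha and Pgk1 have canonical transcripts of 1420 to 1825 bases, Pkm one of 2448, Slc2a3 one of 3959, and Hk1, Pfkp, Slc2a1 and Hk2 ones of 4280 to 7796 bases. All 6 genes under 4000 bases were above the mean of the other 2 KO libraries there and 3 of the 4 longer ones below it, with Slc2a1 above. The same 6 shorter genes had positive log2 fold changes between the groups and the 4 longer ones negative ones, and over the genes of the 3 length classes, which averaged 10 CPM or more, the median log2 fold change was 0.06, 0.01 and -0.03. An offset for transcript length fitted in each library moved the median of all genes tested from -0.01 to 0.04, and one for GC content moved it to 0.04 as well, so values with them are read against that median. With the length offset the log2 fold changes were -0.33 for Hk2 (unadjusted edgeR p 0.0264), -0.14 for Pfkp (unadjusted edgeR p 0.176) and 0.23 for Ldha (unadjusted edgeR p 0.0661). The main fit had given -0.43, -0.19 and 0.21. Pfkp moved by about as much as that median, Hk2 by more and Ldha by less. What part length, RNA quality or the cells sorted had in these deviations was not tested.

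**Figure D3:**
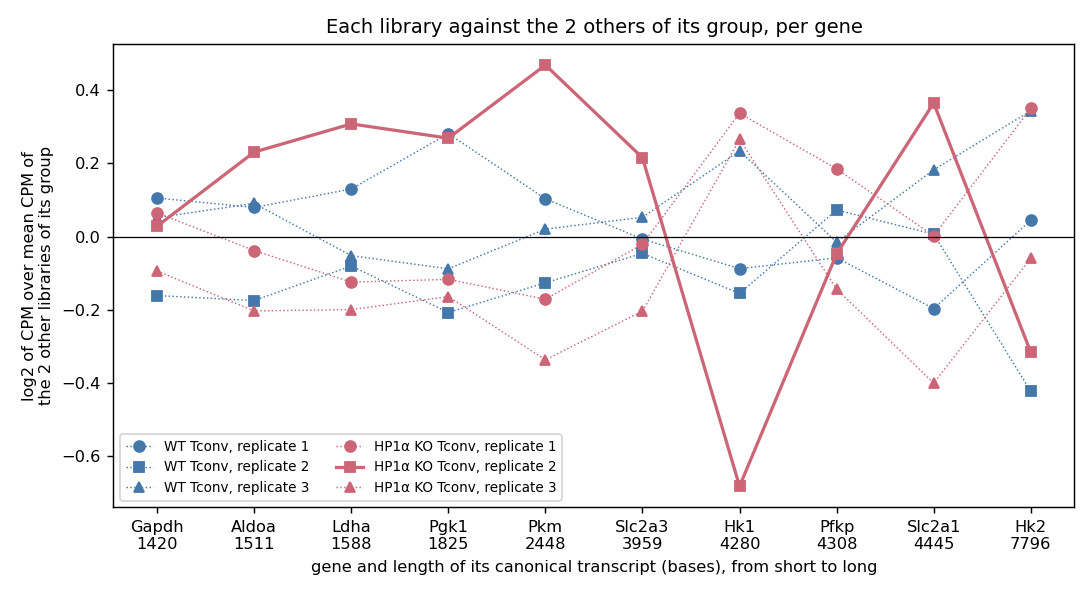
Log2 of the CPM in each library over the mean CPM of the 2 other libraries of its group (vertical axis), for the 10 genes ordered by the length of their canonical transcript in bases (horizontal axis). The solid red line is replicate 2 of Treg with HP1α KO Tconv, which runs from 0.47 above the others for Pkm to -0.68 for Hk1.

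The other libraries had smaller patterns of their own. Replicate 2 of the WT group was the lowest of the 6 for Aldoa, Gapdh, Pgk1 and Ldha and the highest for Pfkp. Replicate 3 of the KO group was the lowest for Slc2a1, Slc2a3, Pfkp and Pkm. Replicate 3 of the WT group, which held the red cell and neutrophil transcripts, was the highest for Slc2a1, Hk1 and Hk2, and the part of those cells in these values was not tested. Without it, 0 of the 10 genes had an unadjusted p under 0.05 in edgeR, against 11.2% of all genes in that fit, and the median log2 fold change was 0.06. The count was also 0 without replicate 1 of the WT group, against 10.6% of all genes. Without replicate 2 of the KO group, Slc2a1 alone had one, against 16.4% of all genes, and the median was -0.03.

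Ratios between related genes within a library do not depend on how libraries are scaled, and 4 were compared. The log2 ratio of Slc2a3 over Slc2a1 was 2.50, 2.34 and 2.29 with WT Tconv and 2.59, 2.51 and 2.74 with HP1α KO Tconv. All KO values lay above all WT values, with a difference in means of 0.24 and a two-sided exact permutation p of 0.1, the smallest that 3 libraries against 3 can give (0.2 after Benjamini-Hochberg adjustment over the 4 ratios). The log2 ratio of Ldhb, the subunit that favours pyruvate, over Ldha was -5.01, -4.86 and -5.10 with WT Tconv and -5.14, -5.37 and -5.21 with HP1α KO Tconv. These groups did not overlap either, with a difference of -0.25, an exact permutation p of 0.1 and an adjusted value of 0.2.

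The log2 ratio of Pfkp over the liver-type Pfkl was 1.69, 1.69 and 1.49 with WT Tconv and 1.56, 1.22 and 1.47 with HP1α KO Tconv, with a difference of -0.21 (exact permutation p 0.2, adjusted 0.267). Here replicate 1 of the KO group exceeded replicate 3 of the WT group. The log2 ratio of Hk2 over Hk1 was -3.36, -3.64 and -3.38 with WT Tconv and -3.63, -3.37 and -3.85 with HP1α KO Tconv. The difference of -0.16 stood beside an SD of 0.15 in the WT group and 0.24 in the KO group (exact permutation p 0.6, adjusted 0.6). No ratio could reach a p below 0.1 in this design. When a library was left out, the difference ranged from 0.17 to 0.30 for Slc2a3 over Slc2a1, from -0.31 to -0.18 for Ldhb over Ldha, from -0.28 to -0.11 (without replicate 2 of the KO group) for Pfkp over Pfkl and from -0.28 (without that library) to -0.04 (without replicate 3 of the KO group) for Hk2 over Hk1.

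**Figure D4:**
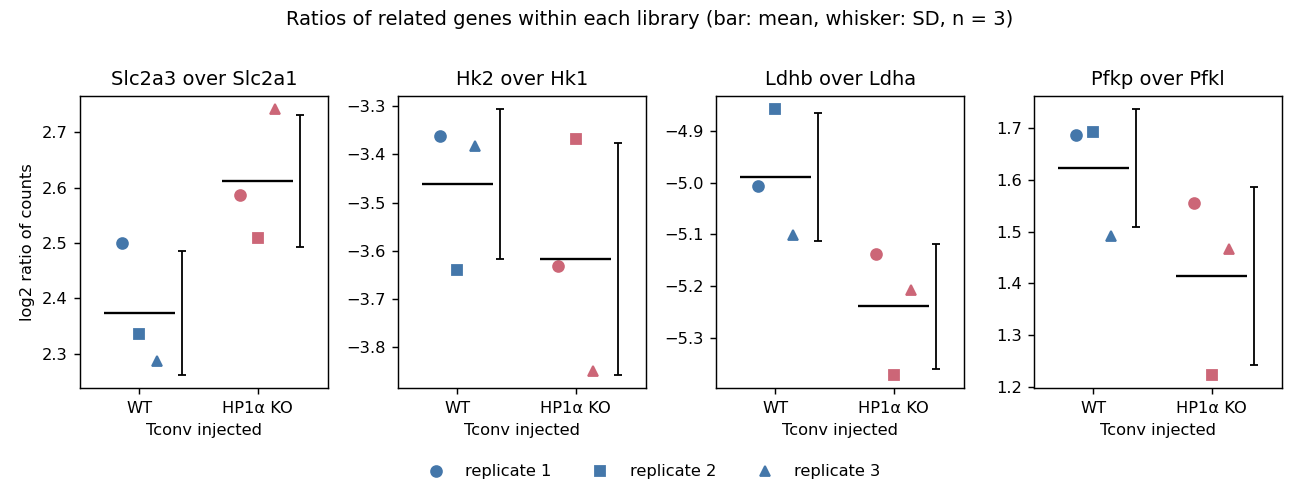
Log2 ratio of the counts of 2 related genes within each library (vertical axes, each with its own range), for Treg with WT Tconv (blue) and HP1α KO Tconv (red), with the mean as a bar and the SD as a whisker. The groups are separate for Slc2a3 over Slc2a1 (2.37 against 2.61) and for Ldhb over Ldha (-4.99 against -5.24) and overlap for the 2 others.

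To set the genes beside each other, counts were divided by the length of the canonical transcript and scaled to the same sum of 1000000 in each library. On this scale Gapdh was at 1365 ± 71.2 (SD over the 6 libraries), Pkm at 918 ± 135, Ldha at 834 ± 106, Aldoa at 530 ± 43.1 and Pgk1 at 385 ± 44.8. Pfkp (154 ± 13.0), Slc2a3 (150 ± 10.7) and Hk1 (109 ± 19.5) formed a middle range, and Slc2a1 (23.8 ± 2.98) and Hk2 (5.17 ± 1.11) were lowest. The ranges of neighbours in this order overlapped for Pkm and Ldha, although Pkm was higher in 6 of 6 libraries, and for Pfkp and Slc2a3, where Pfkp was higher in 4 of 6. The 8 genes above 100 on this scale ranked between 93 and 1540 among all genes, whereas Slc2a1 ranked at 6045 and Hk2 at 10645. The order of the enzymes depended on the length used, since with the merged length of all annotated exons only 2 of the 10 kept their place and Pgk1 became the highest at 545, while Slc2a1 (39.1) and Hk2 (8.44) were lowest on both scales.

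The 6 lists of other genes around glycolysis, 103 genes in all, were read in the same fit. Of the 86 that were tested, 0 had an edgeR adjusted p under 0.05, and 14 (16.3%) had an unadjusted p under 0.05, beside 14.5% of all genes. The log2 fold change was above 0 for 36. DESeq2 called 4 of the 78 to which it gave an adjusted p (5.13%), Epas1, Bnip3l, Mxi1 and Pdp1, all lower beside HP1α KO Tconv, where it called 4.35% of all genes. The rest of the listed genes did not pass the filter on low counts or were not analysed here.

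Among other glycolytic enzymes 15 were tested, 7 with a positive and 8 with a negative log2 fold change (median 0.00). Without replicate 3 of the WT group, the library with red cell and neutrophil transcripts, 11 of the 15 were positive (median 0.08), and without replicate 2 of the KO group 6 were (median -0.08). Eno1, enolase 1, which acts just before pyruvate kinase, was at 378.6, 350.7 and 364.2 CPM with WT Tconv and at 409.6, 430.4 and 412.9 CPM with HP1α KO Tconv. Every KO library lay above every WT library, and Eno1 was the one gene of the 15 with an unadjusted p under 0.05, where 14.5% of all genes had one (log2 fold change 0.20, SE 0.06, unadjusted p 0.0158, edgeR adjusted p 0.246). With the offset for GC content it was 0.16 (unadjusted edgeR p 0.128), and 0 of the 15 had such a p, against 10.3% of all genes. Gpi1, glucose 6-phosphate isomerase, had a log2 fold change of 0.03 (SE 0.07), and 0.08 without replicate 2 of the KO group. Pgam1, phosphoglycerate mutase, had one of 0.17 (SE 0.11), and 0.04 without replicate 2 of the KO group. Tpi1, triose phosphate isomerase, ranged from 83.9 to 164.3 CPM, had a log2 fold change of 0.13 (SE 0.28), and turned to -0.18 without the same library. Ldhb was at 14.9 to 17.4 CPM with a log2 fold change of -0.05 (SE 0.10). That value was -0.12 without replicate 3 of the WT group and -0.08 without replicate 2 of the KO group.

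Some low genes of the pathway were high in replicate 3 of the WT group only. Pklr, the pyruvate kinase of liver and red cells, was at 8.17 CPM there and at 0.21 to 0.55 CPM in the 5 others, and Bpgm, which makes 2,3-bisphosphoglycerate in red cells, was at 48.0 against 21.9 to 30.5 CPM. Hk3, a hexokinase of myeloid cells, was at 8.61 against 1.19 to 1.88 CPM. Of the transporters, Slc16a1, the lactate carrier MCT1, was at 115.3 against 40.1 to 43.8 CPM and Slc2a4, the insulin-responsive GLUT4, at 7.13 against 0.21 to 0.75 CPM. These 5 genes were singled out after their values were seen, and their log2 fold changes without that library were 0.36, -0.07, 0.39, -0.11 and 0.84, with unadjusted edgeR p-values of 0.519, 0.648, 0.111, 0.165 and 0.184. Among the 8 sugar and lactate transporters tested, 2 had a positive and 6 a negative log2 fold change and 0 an unadjusted p under 0.05 in edgeR, against 14.5% of all genes, and without that library 4 of the 8 were positive. The smallest p was that of the urate and sugar transporter Slc2a9 (11.6 to 11.98 CPM against 12.3 to 15.4 CPM, log2 fold change 0.23, unadjusted edgeR p 0.0593).

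Of 19 regulators of glycolysis, 8 had a positive and 11 a negative log2 fold change (median -0.06), and 5 an unadjusted p under 0.05, where 14.5% of all genes had one. The 5 became 2 without replicate 3 of the WT group (11.2% of all genes in that fit), 2 with the offset for transcript length (11.5%) and 1 with the offset for GC content (10.3%). The median became -0.03 without that library and also without replicate 2 of the KO group. With the offsets for length and GC content it was -0.01 and -0.04, beside a median of all genes of 0.04 with each. Hif1a, the inducible HIF-1 subunit, was at 901.9, 891.8 and 909.9 CPM with WT Tconv and at 714.1, 892.1 and 557.5 CPM with HP1α KO Tconv. The WT libraries were tightly grouped, and 2 of the 3 KO libraries were well below them while replicate 2 was at their level. The log2 fold change of -0.32 (SE 0.16, unadjusted edgeR p 0.0789, adjusted p 0.407) became -0.50 (unadjusted edgeR p 0.00175, adjusted p 0.147) without that library, and -0.21 and -0.23 with the offsets for GC content and length (unadjusted edgeR p 0.212 and 0.234).

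Epas1, which encodes HIF-2α, was at 10.5, 14.1 and 12.2 CPM with WT Tconv and at 9.03, 8.59 and 6.81 CPM with HP1α KO Tconv. The groups did not overlap, and the log2 fold change was -0.59 (SE 0.15) with an edgeR adjusted p of 0.209 and a DESeq2 adjusted p of 0.0152. Of the genes whose products limit HIF, some had negative values, Hif1an, which encodes the asparaginyl hydroxylase FIH (log2 fold change -0.23, unadjusted edgeR p 0.0299), and Egln3, a prolyl hydroxylase (-0.38, unadjusted edgeR p 0.0406). A further prolyl hydroxylase, Egln2, had a positive one (0.15, unadjusted edgeR p 0.0415), as did Pfkfb3, whose product makes the activator of phosphofructokinase (0.17, unadjusted edgeR p 0.0399). Myc was at 14.6 to 16.1 CPM with WT Tconv and at 14.8 to 22.1 CPM with HP1α KO Tconv (log2 fold change 0.26, SE 0.14, edgeR adjusted p 0.465). Txnip, which lowers glucose uptake and is itself induced by glucose, was at 348.4 to 500.1 CPM with a log2 fold change of -0.13 (SE 0.13), and 0.01 without replicate 2 of the KO group, the lowest library.

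Other hypoxia-induced genes, outside the pathway itself, had 12 negative and 3 positive log2 fold changes of 15 (median -0.11). With the offset for GC content 7 of the 15 were positive (median -0.06) and with that for transcript length 5 were (median -0.09), beside a median of all genes of 0.04 with each. An unadjusted p under 0.05 was obtained for 3, all lower beside HP1α KO Tconv, where 14.5% of all genes had such a p. Lower without overlap were 4 of the 15, these 3 and Ero1a, an oxidase of the endoplasmic reticulum (log2 fold change -0.06, unadjusted edgeR p 0.331, and 0.05 with the offset for GC content), against 11.6% of all genes. Without replicate 2 of the KO group 7 had an unadjusted p under 0.05, not all of them lower, against 16.4% of all genes. Without replicate 3 of the WT group 2 had one, against 11.2% of all genes. Bnip3l, a mitophagy receptor, was at 176.3, 192.3 and 202.5 CPM with WT Tconv and at 156.3, 154.0 and 151.1 CPM with HP1α KO Tconv. Its log2 fold change was -0.31 (SE 0.07) with an edgeR adjusted p of 0.209 and a DESeq2 adjusted p of 0.0240. It was -0.20 (unadjusted edgeR p 0.0404) with the offset for GC content. Without replicate 3 of the WT group, its highest library, it was -0.26 (unadjusted edgeR p 0.00858). Mxi1, a Myc antagonist, was at 33.0, 37.2 and 47.9 CPM and at 28.2, 21.8 and 27.0 CPM. The highest value was again that of replicate 3 of the WT group, without which the log2 fold change of -0.62 (edgeR adjusted p 0.209, DESeq2 adjusted p 0.00531) became -0.45. Vegfa, an angiogenic factor, was at 1.55, 1.23 and 3.07 CPM and at 0.89, 1.20 and 0.61 CPM, and its log2 fold change of -1.11 (unadjusted edgeR p 0.0241) became -0.62 (unadjusted edgeR p 0.0872) without that library.

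Entry of pyruvate into mitochondria was followed by 14 tested genes, 7 of each sign. An unadjusted edgeR p under 0.05 was obtained for 3, where 14.5% of all genes had one. Higher without overlap were 2, Pdk1 and Dlat, against 11.5% of all genes. Lower without overlap were 3, Pdp1, Dld and Pdhb, against 11.6%. Pcx, pyruvate carboxylase, singled out after its values were seen, was at 7.54 CPM in replicate 3 of the WT group and at 2.39 to 3.93 CPM in the 5 others. Its log2 fold change of -0.29 (unadjusted edgeR p 0.550) became 0.42 (unadjusted edgeR p 0.0540) without that library. Pdk1, the kinase that switches off pyruvate dehydrogenase, was at 50.3, 47.9 and 46.0 CPM with WT Tconv and at 57.1, 56.2 and 57.7 CPM with HP1α KO Tconv. Pdp1, the phosphatase that switches the complex on again, was at 33.4, 30.2 and 32.7 CPM with WT Tconv and at 24.7, 26.6 and 22.3 CPM with HP1α KO Tconv. For both the groups were well apart, in opposite directions. Log2 fold changes were 0.25 (SE 0.07) for Pdk1 and -0.39 (SE 0.09) for Pdp1, both with an edgeR adjusted p of 0.209, and DESeq2 gave adjusted p-values of 0.0895 and 0.0193. With the offset for GC content Pdp1 was at -0.25 (unadjusted edgeR p 0.0332) and Pdk1 at 0.32 (unadjusted edgeR p 0.00556). In the main fit Pdp2, a further phosphatase gene, was at 0.16 (unadjusted edgeR p 0.109), opposite in sign to Pdp1. The kinase genes Pdk2 and Pdk3 were both at 0.03 (unadjusted edgeR p 0.91 and 0.72). Dlat, the E2 subunit of the complex, was at 25.0 to 25.7 CPM and at 28.6 to 29.6 CPM (log2 fold change 0.19, unadjusted edgeR p 0.0198).

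Of the genes of side branches, 15 were tested, 9 with a positive and 6 with a negative log2 fold change (median 0.06). Without replicate 3 of the WT group 8 were positive (median 0.02), and without replicate 2 of the KO group 10 were (median 0.09). With all libraries an unadjusted edgeR p under 0.05 was obtained for 2, Phgdh and Tkt, where 14.5% of all genes had one. Higher without overlap were 3, these 2 and Pgls, against 11.5% of all genes. Lower without overlap were 0, against 11.6%. Phgdh, the first enzyme of serine synthesis from 3-phosphoglycerate, was at 95.3, 81.6 and 82.7 CPM with WT Tconv and at 99.1, 103.1 and 110.0 CPM with HP1α KO Tconv. Tkt, transketolase of the pentose phosphate pathway, was at 190.1, 183.4 and 222.5 CPM with WT Tconv and at 225.5, 235.1 and 244.1 CPM with HP1α KO Tconv. Neither pair of groups overlapped, and the log2 fold changes were 0.27 and 0.24 (unadjusted edgeR p 0.0112 and 0.0220, adjusted p 0.231 and 0.269). Without replicate 3 of the WT group they were 0.23 and 0.33 (unadjusted edgeR p 0.0367 and 0.00264, adjusted p 0.422 and 0.380).

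**Figure D5:**
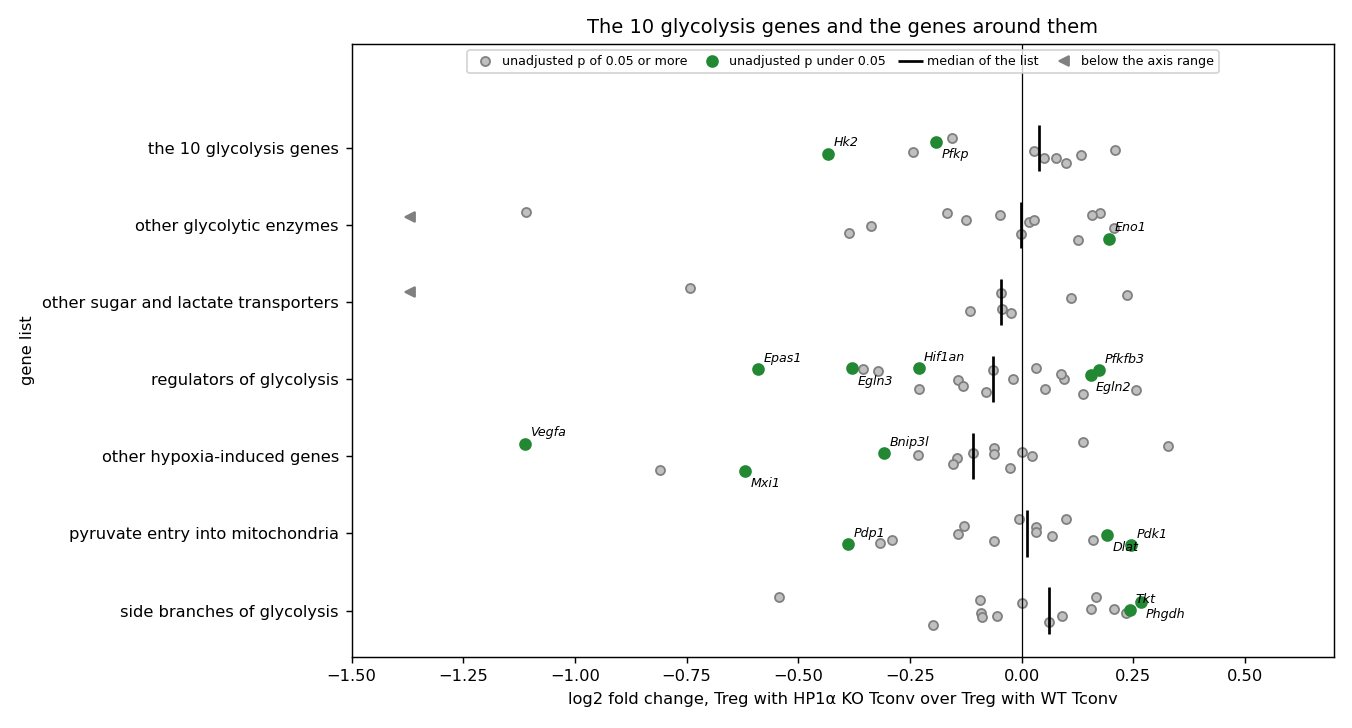
Log2 fold change (HP1α KO Tconv over WT Tconv) of each tested gene in the list of 10 glycolysis genes and in 6 lists around it, with the median of each list as a black line. Green points have an unadjusted edgeR p under 0.05 and are named. None passed adjustment in edgeR, while DESeq2 called Epas1, Bnip3l, Mxi1 and Pdp1. The 2 triangles stand for Pklr (-3.09) and Slc2a4 (-2.51), which lie beyond the axis. The medians lie between -0.11 and 0.06.

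Outside these lists, the genes whose log2 CPM over the 6 libraries was most like the mean standardised profile of the 10 glycolysis genes were Mrps6 (Pearson r 0.987), 1110004F10Rik (0.979) and Ctdnep1 (0.977), among the 8751 that averaged 10 CPM or more. With 6 points that share a library and its depth, and with so many genes searched, these values only describe the profile, which was highest in replicate 2 of the KO group.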

How the data were processed

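Treg RNA was sequenced from 6 libraries (stranded total RNA), 3 per group as the labels name them. After trimming, the authors mapped reads to GRCm39 with STAR and quantified genes with Salmon. What they deposited is a table of estimated counts, already whole and without any normalization, which was used as it stands. Salmon divides ambiguous reads by a model, which can move counts between overlapping genes or copies. Library totals of 87421755 to 119078882 counts leave counting error small beside the spread between libraries. Reads carried no molecular identifiers.

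The comparison was fitted with edgeR version 4.0.16 (quasi-likelihood, legacy method, robust, TMM, filterByExpr, group as the sole term) in R version 4.3.3, with Benjamini-Hochberg adjustment over 18321 genes and a threshold of 0.05. The SE was derived from the F statistic (size of the log2 fold change divided by the root of F). CPM used TMM-scaled totals. Ratios were compared by two-sided exact permutation tests. The fit was tested on simulated data.

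The 10 genes and the lists were chosen with earlier results of these data known. Named besides them were genes of each list with an unadjusted p under 0.05 (up to 3 per direction, otherwise the smallest p). Hif1a, Myc, Txnip, Ldhb, Gpi1, Tpi1, Pgam1, Eno1, Pdk1 and the 3 genes of most similar profile were named too. Pfkl was named for its ratio, and Ero1a, Dld, Pdhb and Pgls for their lack of overlap. Pdp2, Pdk2 and Pdk3 were named beside Pdp1 and Pdk1. Pklr, Bpgm, Hk3, Slc16a1, Slc2a4 and Pcx were named after their values were seen. Positions, lengths and promoters came from a GENCODE annotation of GRCm39, in which 28854 of 29199 identifiers matched. Copies were searched with BLAST version 2.17.0 requiring 95% identity, 80% of the copy and 200 bases. Alternatives were DESeq2 version 1.42.0, limma-voom (limma version 3.58.1), the newer quasi-likelihood method, 3 other scalings, 2 other filters, copies summed, a replicate block and leaving out each library. Offsets for length and GC content (loess, span 0.5) and the merged exon length were chosen after seeing the data.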

Additional observations from a re-analysis of the deposited data

How the results depend on the processing

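No glycolysis gene had an adjusted p under 0.05 in any of the 18 alternatives, where the smallest was 0.0928 (Hk2 with DESeq2), and Slc2a1, Hk1, Hk2 and Pfkp stayed negative and Slc2a3, Pgk1 and Ldha positive in all of them. Over the 6 fits that left out a library, Aldoa ranged from -0.0296 to 0.117, Pkm from -0.0404 to 0.237, Gapdh from -0.0126 to 0.0753 and the median of the 10 genes from -0.0350 to 0.0874, on the log2 scale. Aldoa, Pkm and the median turned negative without replicate 2 of the KO group, and Gapdh and the median (-0.0024) without replicate 2 of the WT group.

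Of the 10 genes, 1 had an unadjusted p under 0.05, in place of 2, with the replicate block (11.4% of all genes in that fit), upper quartile scaling (13.9%) and the added offsets for transcript length (11.5%) or GC content (10.3%), 3 with no filter beyond 1 count (9.87%, Ldha being the third), and 0 to 2 when a library was left out (0 without replicate 1 or 3 of the WT group). The number without overlap, 1, was 2 with total counts only (23.9% of all genes) and 1 to 3 when a library was left out (3 without replicate 1 of the WT group or replicate 3 of the KO group), where 30.7 to 37.4% of all genes did not overlap. Over the other lists, DESeq2 called 4 genes in place of 0, and the number with an unadjusted p under 0.05, 14, was 9 with the GC offset (10.3% of all genes) and 8 to 23 when a library was left out (8 without replicate 2 of the WT group, 9 without replicate 3 and 23 without replicate 2 of the KO group, beside 10.98%, 10.36% and 16.4% of all genes). Only 2 of the 10 kept their rank of level with merged exon lengths. The causes of these changes were not tested.

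The same replicate numbers correlated at -0.07, 0.17 and 0.12 in their deviations, so the numbers were not taken to pair the libraries. With the replicate block, edgeR called 1 gene of all tested in place of 0 and none of the 10. With 3 libraries a group, an interval that holds 0 leaves any difference within it open.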
